A study of Danio rerio with 9 samples.

Results

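Zebrafish embryos in which eif5a1/2 had been targeted with a morpholino were compared with embryos injected with a control morpholino. The comparison uses 6 of the 9 libraries of the series, 3 labelled eif5a1/2 morpholino and 3 labelled control morpholino, and all 24614 genes of the deposited table. The other 3 libraries, from embryos given a dhps morpholino, share the same controls and entered the fit that estimates the spread between libraries. All embryos were taken whole, and polyadenylated RNA was extracted 24 hours after fertilization per the series design, or 24 hours after the morpholino per the treatment notes. A morpholino is a synthetic antisense oligomer that blocks translation or splicing of its target transcript, and it is diluted as the embryo grows, so the embryos are transient knockdowns and not mutants. Its sequence, dose and mode of action, the strain and the number of embryos in a library were not found in the sources used here. Nothing in the labels says that replicates came from separate clutches, so the p-values measure the spread between these libraries, which may be technical.

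The translation factor eIF5A binds ribosomes that have stalled during elongation or at a stop codon and helps the next bond, or the release of the chain, to form. It works only after one of its lysines has been turned into hypusine, an amino acid built from the polyamine spermidine. Deoxyhypusine synthase, encoded by dhps, carries out the first step, and deoxyhypusine hydroxylase, encoded by dohh, the second. Vertebrates carry paralogous genes for the factor, in the zebrafish table eif5a and eif5a2.

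The libraries held 15952644 to 17482536 reads, and 17031 genes passed the filter on low counts. Levels are given as CPM, read counts scaled to a common library size, and a gene is said to have risen or fallen only if its p-value from edgeR's quasi-likelihood test, adjusted over the 17031 genes by the Benjamini-Hochberg method, was under 0.05. Defining transcripts of the main embryonic tissues were present in all 6 libraries, from 12.3 to 18.4 TPM, the deposited unit that also corrects for transcript length, for the neuronal gene elavl3 to 6300.4 to 7920 TPM for the muscle actin gene actc1b. Over the genes tested, deviations from the group mean in same-numbered eif5a1/2 and control libraries correlated by 0.403, 0.76 and 0.318. However, eif5a1/2 1 correlated more with control 3 (0.597). The replicate 2 libraries of both groups stood apart from the other 4. On the first principal component, computed from log2 CPM, the eif5a1/2 libraries scored -55.59, 59.18 and -21.42 and the control libraries -54.61, 24.39 and -72.57. Genes of cytoplasmic ribosomal proteins took 27.0%, 17.1% and 23.1% of the reads in eif5a1/2 1, 2 and 3, against 27.3%, 20.7% and 29.4% in control 1, 2 and 3. Pair 1 thus lay level on this axis, while in pairs 2 and 3 the eif5a1/2 library lay on the side of fewer ribosomal protein reads. On the same axis dhps 1 scored 58.68, and the labels do not say what the replicate number stands for. The same-number correlations passed the limit of 0.1 set for calling libraries paired. So did those of eif5a1/2 1 with control 3 (0.597) and of eif5a1/2 3 with control 1 (0.26). The check therefore does not single out the replicate numbers as the pairs. Genes were tested without the replicate number, in a fit to all 9 libraries. They were also tested with it as a block, in a fit to the 6 libraries called the paired fit. Of the 332 genes called in the paired fit 26 also passed without pairing, and the other 306 did not.

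The morpholino label, eif5a1/2, names both paralogs. The transcript eif5a (gene ID 406464) was at 16.7% of its control level. It had 238, 213 and 229 CPM in eif5a1/2 libraries, against 1467, 1168 and 1454 CPM in control libraries. The groups were far apart, and eif5a fell by 2.58 ± 0.16 on the log2 scale (SE; edgeR adjusted p = 0.000209). The paralog eif5a2 (406546) had 147, 283 and 209 CPM in eif5a1/2 libraries, against 252, 368 and 215 CPM in control libraries. These values overlapped, and its log2 difference of -0.39 did not pass the test (adjusted p = 0.729, and 0.189 in the paired fit). In CPM the eif5a1/2 library was the lower one of each pair, with a log2 difference of only -0.04 in pair 3. In the deposited TPM it was the higher one of pair 3 (62.1 against 44.1). Reads from one paralog can be assigned to the other, and the sources used here do not say how the counting treated them. Per length, eif5a remained above eif5a2 in the knockdown. The deposited TPM of eif5a were 106, 194 and 131 in eif5a1/2 libraries and 673, 859 and 573 in control libraries, and those of eif5a2 were 34.4, 131 and 62.1 in eif5a1/2 libraries and 59.4, 137 and 44.1 in control libraries.

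The enzymes that make hypusine did not pass the test in either direction. The dhps transcript had 15.16, 15.5 and 14.1 CPM in eif5a1/2 libraries, against 13.01, 14.7 and 15.7 CPM in control libraries (log2 difference 0.04 ± 0.12, adjusted p = 0.929). The dohh transcript had 99.6, 53.3 and 74.0 CPM in eif5a1/2 libraries, against 83.2, 59.97 and 92.0 CPM in control libraries (-0.05 ± 0.23, adjusted p = 0.961). For both genes the sign of the difference turned with the scaling or with the libraries used. None of the 14 genes tested for polyamine metabolism, which supplies spermidine, passed the test in either fit.

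**Figure D1:**
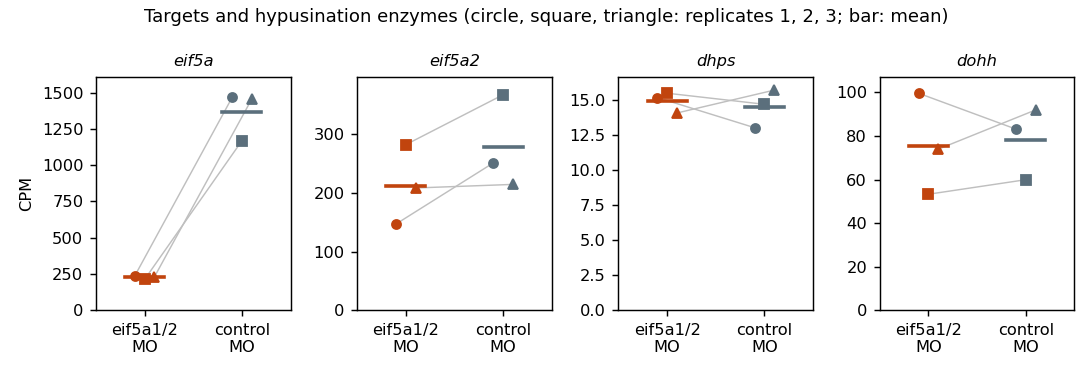
CPM of eif5a, eif5a2, dhps and dohh in each library of eif5a1/2 morpholino (left) and control morpholino embryos (right), on linear axes that start at 0. Circles, squares and triangles are replicates 1, 2 and 3, grey lines join libraries with the same number, and short bars are group means. The eif5a1/2 libraries lie at 213 to 238 CPM for eif5a and the control libraries at 1168 to 1467, while the groups overlap for the other 3 genes.

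Apart from eif5a, few transcripts stood clear of the spread without pairing, and they belonged to unlike processes. Genes for glycine methylation (gnmt), a membrane protein (itm2ba), stop codon recognition (etf1b) and tRNA modification (alkbh8) rose. Genes for heme synthesis (ppox), an initiator caspase (casp8), a Wnt enhancer (rspo1) and a tubulin (tubb5) fell. Of the 17031 genes tested, 26 changed (0.153%), 11 higher (0.0646%) and 15 lower (0.0881%) in eif5a1/2 embryos, and 1537 (9.02%) had an unadjusted p under 0.05. In each of the 26 the groups were fully separate and all 3 pairs moved the same way. The test picked these genes on the same libraries, which favours both, so this is description and no further evidence. Over all genes tested, 12.4% had separate groups (5.78% higher, 6.65% lower in eif5a1/2 libraries) and 38.5% moved the same way in all 3 pairs. All 26 also passed the test in the paired fit of the 6 libraries, and 14 of them with the replicate block in all 9 libraries. When 1 library was left out at a time the number of calls lay between 5, without eif5a1/2 3, and 20, without eif5a1/2 1. Only 5 of the 26 (eif5a, ppox, gnmt, itm2ba and si:ch211-210c8.6) passed in all 9 such fits, and 9 passed in none. Of the others named here or below, rspo1 passed in 4, etf1b, pgpep1, jac10 and phlda3 in 2, and alkbh8, casp8 and pcdh1a3 in 1. The genes tbl1xr1a, slc25a4, acsl6, pcsk1nl and tubb5 passed in 0.

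The gene gnmt encodes glycine N-methyltransferase, a liver enzyme that spends S-adenosylmethionine on glycine and so sets the methylation capacity of the cell. It had 19.6, 18.6 and 20.8 CPM in eif5a1/2 libraries, against 3.86, 3.98 and 3.18 CPM in control libraries. All 3 eif5a1/2 libraries were several times above every control, and gnmt rose by 2.41 ± 0.16 on the log2 scale (adjusted p = 0.000284). No other gene of the 24 tested in the methionine cycle list passed the test in either fit. The gene itm2ba, a homolog of the human membrane protein gene ITM2B, had 97.2, 93.4 and 91.5 CPM in eif5a1/2 libraries, against 25.3, 28.4 and 27.4 CPM in control libraries. It rose by 1.80 ± 0.11 (adjusted p = 0.000209), and its libraries varied little within either group.

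The gene etf1b encodes release factor 1, which reads stop codons at the same step of translation at which eIF5A assists. It had 405, 326 and 368 CPM in eif5a1/2 libraries, against 168, 132 and 164 CPM in control libraries, and rose by 1.25 ± 0.15 (adjusted p = 0.023). Each pair differed by a similar amount, from 1.17 to 1.31 on the log2 scale. The gene alkbh8, whose human product modifies wobble uridines in tRNA, had 17.9, 12.8 and 17.3 CPM in eif5a1/2 libraries, against 6.87, 6.92 and 8.47 CPM in control libraries (1.11 ± 0.17, adjusted p = 0.0457). The corepressor subunit gene tbl1xr1a had 55.1, 50.4 and 47.3 CPM in eif5a1/2 libraries, against 29.1, 26.6 and 25.8 CPM in control libraries (0.91 ± 0.13, adjusted p = 0.0346). Neither alkbh8 nor tbl1xr1a overlapped between groups, but alkbh8 was called in 1 and tbl1xr1a in 0 of the 9 fits that left out a library. The peptidase gene pgpep1 had the highest fold change of the 26 and a wide spread. Its levels were 19.4, 5.34 and 8.35 CPM in eif5a1/2 libraries, against 1.07, 1.101 and 1.17 CPM in control libraries, a rise of 3.29 ± 0.46 (adjusted p = 0.0333).

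Among the genes that fell, ppox encodes protoporphyrinogen oxidase, the enzyme before the insertion of iron in heme synthesis. It had 2.55, 2.77 and 1.95 CPM in eif5a1/2 libraries, against 17.7, 15.3 and 16.3 CPM in control libraries, and fell by 2.75 ± 0.17 on the log2 scale (adjusted p = 0.000209). No control library came near the level of the knockdown. In the order of tested genes in an NCBI table of another assembly, ppox lies 2 steps from alkbh8, so a gene that fell to a low level and one that rose are near neighbours. No annotation of the files' assembly was used here, so whether the 2 genes overlap and share reads was not tested.

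The Wnt enhancer gene rspo1 had 2.01, 1.45 and 1.44 CPM in eif5a1/2 libraries, against 5.01, 6.97 and 7.07 CPM in control libraries, and fell by 1.97 ± 0.24 (adjusted p = 0.0228). The jacalin-like gene jac10 had 3.25, 2.16 and 2.45 CPM in eif5a1/2 libraries, against 7.80, 6.03 and 8.54 CPM in control libraries (-1.52 ± 0.21, adjusted p = 0.0296). The mitochondrial ADP/ATP carrier gene slc25a4 had 6.50, 6.19 and 8.85 CPM in eif5a1/2 libraries, against 17.2, 17.1 and 20.2 CPM in control libraries (-1.34 ± 0.18, adjusted p = 0.0296). In all of these the highest eif5a1/2 library lay well below the lowest control. The acyl-CoA synthetase gene acsl6 had 4.64, 4.31 and 4.52 CPM in eif5a1/2 libraries, against 8.80, 9.23 and 9.40 CPM in control libraries (-1.03 ± 0.13, adjusted p = 0.0296). The prohormone gene pcsk1nl, whose mammalian product proSAAS inhibits a prohormone convertase, had 7.43, 7.36 and 7.85 CPM in eif5a1/2 libraries, against 13.3, 12.4 and 14.0 CPM in control libraries (-0.81 ± 0.11, adjusted p = 0.0307).

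The protocadherin gene pcdh1a3 had 0 reads in all 3 eif5a1/2 libraries, against 192 reads over the 3 control libraries. Its control levels were 3.43, 5.77 and 2.64 CPM, and dhps libraries held 1.19, 3.04 and 0.99 CPM. Set against a floor of 3 reads over the group, it was at least 69.9-fold lower in eif5a1/2 embryos (adjusted p = 0.0318). Clustered protocadherin genes share near-identical exons, so the assignment of reads within the cluster is uncertain. Another gene of the cluster that fell, in the paired fit only and chosen after its values were seen, was pcdh1g3, with 3.56, 5.16 and 8.35 CPM in eif5a1/2 libraries and 7.22, 9.96 and 12.2 CPM in control libraries (paired log2 -0.82 ± 0.17, adjusted p = 0.0305, and 0.474 without pairing).

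**Figure D2:**
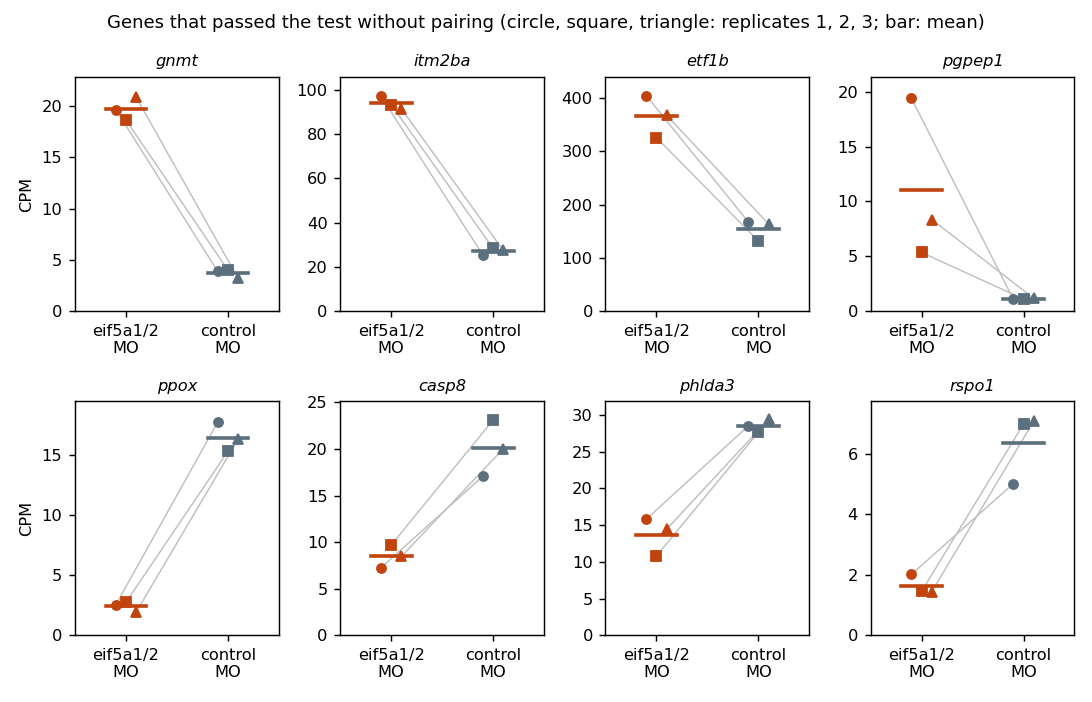
CPM of 4 genes that rose (gnmt, itm2ba, etf1b, pgpep1) and 4 that fell (ppox, casp8, phlda3, rspo1) in the fit without pairing, in eif5a1/2 morpholino (left) and control morpholino libraries (right), on linear axes that start at 0. Circles, squares and triangles are replicates 1, 2 and 3, grey lines join libraries with the same number, and short bars are group means. In each panel the groups do not overlap, and pgpep1 varies most, from 5.34 to 19.4 CPM in eif5a1/2 libraries.

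With the replicate number as a block in the 6 libraries, genes of differentiated tissues were among those called, most of them lower in eif5a1/2 embryos: lens crystallins, embryonic globins, fast muscle proteins, neuronal genes and type IX collagen chains. The paired fit called 332 of 17031 genes (1.95%), 147 higher (0.863%) and 185 lower (1.09%), and 2927 (17.2%) had an unadjusted p under 0.05. Of the 332 genes, 330 moved the same way in all 3 pairs, 218 did not overlap between groups, and 112 differed by more than 1 on the log2 scale. These counts describe genes that the test picked on the same libraries. The same 6 libraries without the block gave 5 calls (0.0294%), and the block in all 9 libraries gave 14 (6 higher, 8 lower). The common coefficient of variation between libraries was 0.125 in the paired fit, 0.273 in the same 6 libraries without the block and 0.225 in the fit to 9 libraries. The count depended on the pairs: without pair 1 it was 1866, without pair 2 it was 305 and without pair 3 it was 320.

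**Figure D3:**
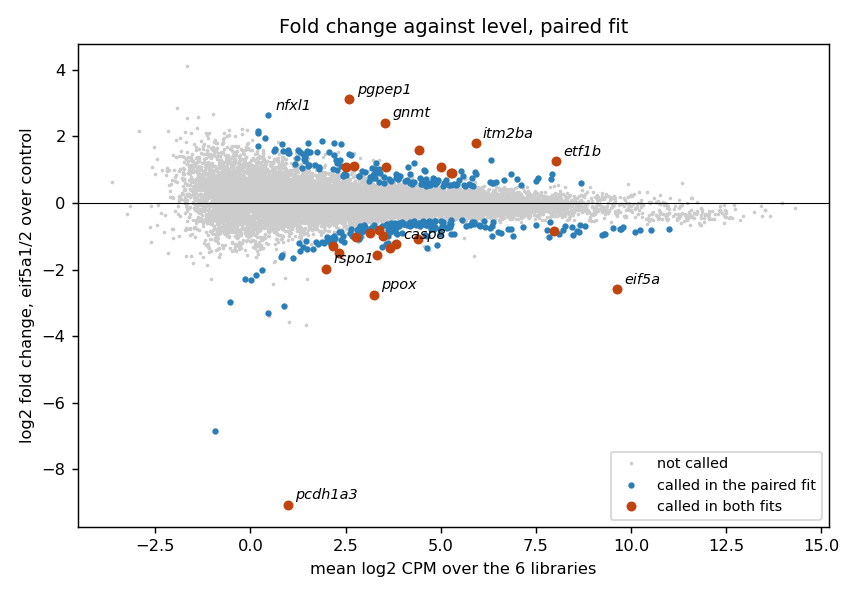
Log2 fold change of eif5a1/2 over control embryos in the paired fit (vertical axis) against mean log2 CPM over the 6 libraries (horizontal axis), 1 point per gene tested. Grey points are not called, the 306 blue points are called in the paired fit alone, and the 26 red points are called in both fits. The fitted values of pcdh1a3, near the bottom edge, and of LOC101885044, the lowest blue point, rest on 0 reads in eif5a1/2 libraries and are not measured folds.

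Lens crystallins, the proteins that fill the fibre cells of the lens, had the highest share of calls among the 44 lists. Of 22 crystallin genes tested, 12 fell in the paired fit and 0 rose, a share of 54.5% beside 1.09% of all genes, and 20 had negative values. Without pairing, 8178 of all 17031 genes tested had negative values. The list median was -0.95 on the log2 scale, against 0.01 for all genes, and the medians in pairs 1, 2 and 3 were -0.65, -0.91 and -1.12. The beta crystallin gene cryba1b had 18.6, 12 and 19.2 CPM in eif5a1/2 libraries, against 34.2, 23.3 and 42.4 CPM in control libraries (paired log2 -0.99 ± 0.12, adjusted p = 0.00231). The gamma crystallin gene crygn2 had 22.7, 9.001 and 17.8 CPM in eif5a1/2 libraries, against 36.0, 19.4 and 39.4 CPM in control libraries (-0.97 ± 0.14, adjusted p = 0.00417). The ranges of cryba1b did not overlap and those of crygn2 did, since both genes were lower in the replicate 2 libraries of either group. Of the beta crystallins 6 of 10 tested fell, and of the gamma crystallins 6 of 11 tested, which are 11 of 30 in the table because most were too low to test. These subgroups were formed after the lists were seen. The lowest fold changes were those of the fish-specific M2 genes crygm2d8 (1.16, 0.61 and 0.82 CPM in eif5a1/2 libraries, against 2.503, 2.25 and 3.11 CPM in control libraries, adjusted p = 0.0218) and crygm2d10 (adjusted p = 0.0247). These M2 genes lie side by side and are near-identical, so the counts of single members are uncertain. A gene of lens fibre membranes, lim2.1, had 6.57, 3.09 and 5.59 CPM in eif5a1/2 libraries, against 11.2, 7.03 and 10.1 CPM in control libraries (-0.93 ± 0.17, adjusted p = 0.0189). It was the only one of the 28 genes tested for retina and lens development that passed the test (3.57%, beside 1.09% of all genes). None of the crystallins passed without pairing (adjusted p = 0.204 to 0.684 for the 12), and their median in dhps embryos against the same controls was -1.05. With the block, 10 of the 12 also passed with the length trend removed, 6 in DESeq2, and 7 in all 3 fits that left out a pair. Of the 6 gamma crystallins called, 1 passed in DESeq2. Neither crygm2d8 nor crygm2d10 did (DESeq2 adjusted p = 0.0715 and 0.0849). In whole embryos, fewer cells of a type and less RNA per cell cannot be told apart.

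Embryonic globins, the oxygen carriers of primitive red cells, were lower in the paired fit. Of 9 globin genes tested 7 fell in it, a share of 77.8% beside 1.09% of all genes. The globins were set apart from the erythroid list after the lists were seen, so this share describes a chosen subset. All 9 had negative values without pairing, with a median of -0.93, as had 8178 of all 17031 genes. None passed without pairing (adjusted p = 0.536 to 0.622 for the 7), and the globin median in dhps embryos against the same controls was -1.15. The gene hbbe1.3 had 480, 210 and 517 CPM in eif5a1/2 libraries, against 995, 376 and 1019 CPM in control libraries (paired log2 -0.96 ± 0.14, adjusted p = 0.00514). The gene hbbe2 had 79.4, 27.0 and 61.9 CPM in eif5a1/2 libraries, against 126, 65.7 and 128 CPM in control libraries (-0.998 ± 0.14, adjusted p = 0.00388). For both genes the ranges overlapped between groups while every pair differed, because replicate 2 was low in either group. The genes hbae3 (adjusted p = 0.0218) and hbae5 (adjusted p = 0.0076) also fell, by 0.80 and 1.23 on the log2 scale. Of the 35 erythroid genes tested, which include these globins and ppox, 9 fell (25.7%) and 0 rose. The 9 were the 7 globins already counted, ppox and ank1a. The list median was -0.27, and the pair medians were -0.54, -0.25 and -0.23. Globin transcripts are short, and when the trend of fold change with transcript length was removed from the paired fit, 3 of the 7 globins still passed the test. The globin copies are nearly alike in sequence, and their single values are uncertain.

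Genes of fast skeletal muscle, among them myosin light chains, troponins and parvalbumins, were lower in the paired fit. Of 49 skeletal muscle genes tested, 7 fell in the paired fit (14.3%, beside 1.09% of all genes), 0 rose and 39 had negative values. The list median was -0.32, and the medians in pairs 1, 2 and 3 were -0.12, -0.52 and -0.42. The myosin light chain gene mylpfb had 321, 193 and 319 CPM in eif5a1/2 libraries, against 520, 413 and 526 CPM in control libraries (paired log2 -0.84 ± 0.14, adjusted p = 0.0111). The fast troponin I gene tnni2a.4 had 592, 269 and 499 CPM in eif5a1/2 libraries, against 875, 651 and 956 CPM in control libraries (-0.93 ± 0.16, adjusted p = 0.0135). The parvalbumin gene pvalb1, a calcium buffer of fast fibres, had 335, 140 and 268 CPM in eif5a1/2 libraries, against 469, 364 and 548 CPM in control libraries (-0.97 ± 0.17, adjusted p = 0.0126). In these 3 genes no eif5a1/2 library reached the lowest control, and pair 2 differed most. The troponin T gene tnnt3b, the parvalbumin genes pvalb2 and pvalb4 and the myosin light chain gene mylz3 also fell, with adjusted p of 0.0138, 0.0178, 0.02 and 0.0282. None of the 7 was called in all 3 fits that left out a pair, and without pairing their adjusted p lay between 0.23 and 0.47. In the heart list of 19 genes, the natriuretic peptide gene nppa fell, with 3.40, 3.33 and 3.26 CPM in eif5a1/2 libraries, against 8.72, 5.03 and 9.55 CPM in control libraries (-1.16 ± 0.22, adjusted p = 0.0208, and 0.138 without pairing). The transcription factor gene gata5 of that list rose by 0.50 ± 0.12 (adjusted p = 0.0493, and 0.253 without pairing). It did not pass with the block in DESeq2 (adjusted p = 0.0985) and was called in 1 of the 3 fits that left out a pair. In the heart list 5.26% fell and 5.26% rose in the paired fit, beside 1.09% and 0.863% of all genes.

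Neuronal differentiation genes were lower with little variation between pairs. Of 48 genes of differentiated neurons tested, 44 had negative values, 24 had eif5a1/2 levels entirely below the control levels, 4 fell in the paired fit (8.33%) and 0 rose. Over all genes tested, 6.65% lay entirely below the controls and 1.09% fell in the paired fit. The list median was -0.45, and the medians in pairs 1, 2 and 3 were -0.40, -0.53 and -0.39. The beta tubulin gene tubb5 had 171, 192 and 178 CPM in eif5a1/2 libraries, against 310.1, 351 and 312 CPM in control libraries, and fell by 0.85 ± 0.13 in the fit to 9 libraries (adjusted p = 0.048). The growth cone gene gap43 had 59.5, 37.1 and 53.4 CPM in eif5a1/2 libraries, against 81.1, 61.2 and 102 CPM in control libraries (paired log2 -0.70 ± 0.13, adjusted p = 0.0163). The stathmin gene stmn2b, which acts on microtubules in axons, fell by 0.69 ± 0.13 (paired adjusted p = 0.0211). The vesicular acetylcholine transporter gene slc18a3a of motor neurons had 2.40, 2.25 and 3.201 CPM in eif5a1/2 libraries, against 6.65, 6.76 and 4.89 CPM in control libraries (-1.23 ± 0.24, paired adjusted p = 0.0214). All 4 genes had groups that did not overlap, and the last 3 did not pass without pairing.

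Among 40 proneural and Notch pathway genes, which commit progenitors to the neuronal fate, 3 fell (7.5%) and 1 rose (2.5%) in the paired fit. Over all genes tested, 1.09% fell and 0.863% rose in it. None of these 4 genes passed without pairing (adjusted p = 0.0568 to 0.78). Only insm1b also passed with the block in DESeq2 and in all 3 fits that left out a pair. The zinc finger gene insm1b had 19.03, 20.5 and 17.6 CPM in eif5a1/2 libraries, against 31.0, 28.6 and 30.1 CPM in control libraries (paired log2 -0.65 ± 0.12, adjusted p = 0.0208, and 0.0568 without pairing). The proneural factor genes neurog1 (-0.57 ± 0.12, paired adjusted p = 0.0354) and ascl1a (-0.54 ± 0.12, paired adjusted p = 0.046) fell by similar amounts. With the block in DESeq2 their adjusted p were 0.06 and 0.151, and ascl1a was called in 1 of the 3 fits that left out a pair. The Notch receptor gene notch3 was called higher in the paired fit, but its levels followed the replicate number. It had 2.24, 30.9 and 4.90 CPM in eif5a1/2 libraries, against 2.07, 12.5 and 2.097 CPM in control libraries, and its sign turned in the fit to 9 libraries when eif5a1/2 2 was left out. The list median was -0.02. Among 51 neural progenitor and patterning genes none passed the test in either fit, with a median of -0.05.

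Endocrine pancreas genes, some of which are also neuronal, had a median of -0.33, with 24 of 30 negative. In the paired fit 3 fell (10%, beside 1.09% of all genes) and 0 rose. The insulin gene ins had 7.58, 4.45 and 5.90 CPM in eif5a1/2 libraries, against 11.7, 7.08 and 12.6 CPM in control libraries (paired log2 -0.80 ± 0.17, adjusted p = 0.0319). With the block it did not pass with the length trend removed (adjusted p = 0.142) or in DESeq2 (adjusted p = 0.0895). The other members that fell were insm1b and pcsk1nl, named above.

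Type IX and type II collagen chains, which form the fibrils of cartilage and of the notochord sheath, fell in the paired fit, and no other collagen gene passed the test. Of 46 collagen genes tested, 4 fell in the paired fit (8.70%, beside 1.09% of all genes) and 0 rose, with a median of -0.15. They were 3 of the 4 type IX chains tested and the type II chain col2a1a, with which type IX is assembled. None passed without pairing (adjusted p = 0.225 to 0.336), and col2a1a (paired adjusted p = 0.0482) lost its call with the block in DESeq2 (0.208), with the block and the length trend removed (0.0993) and in 2 of the 3 fits that left out a pair. The gene col9a1b had 113, 81.1 and 51.5 CPM in eif5a1/2 libraries, against 158, 177 and 136 CPM in control libraries (paired log2 -1.001 ± 0.16, adjusted p = 0.00977). The gene col9a2 had 70.23, 65.9 and 42.0 CPM in eif5a1/2 libraries, against 102, 104 and 87.2 CPM in control libraries (-0.75 ± 0.13, adjusted p = 0.0137). The gene col9a3 had 66.6, 56.3 and 40.0 CPM in eif5a1/2 libraries, against 84.2, 95.4 and 84.0 CPM in control libraries (-0.72 ± 0.14, adjusted p = 0.0242). In all 3 genes eif5a1/2 3 was the lowest library and pair 3 differed most. The proteoglycan gene epyc of the notochord list fell by 1.02 ± 0.17 (adjusted p = 0.0111, and 0.4 without pairing). Of that list, with the floor plate and hedgehog genes, 5 of 37 fell (13.5%) and 1 rose (2.7%) in the paired fit, with a median of -0.12. Of all genes tested, 1.09% fell and 0.863% rose in that fit. The median type IX difference was -0.71 in eif5a1/2 embryos, and it was -0.10 in dhps embryos against the same controls. The type IX chains were grouped after the lists were seen.

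Several of the highest paired fold changes were of the same kind as that of notch3. The genes nfxl1 (0.31, 5.81 and 1.07 CPM in eif5a1/2 libraries, against 0.21, 0.89 and 0.00 CPM in control libraries) and mpdz (0.62, 11.5 and 1.32 CPM, against 0.36, 3.30 and 0.16 CPM) were high in the replicate 2 libraries of either group. The kinase gene mknk2b, whose product phosphorylates initiation factor eIF4E, had 0.39, 7.64 and 0.44 CPM in eif5a1/2 libraries, against 0.21, 1.78 and 0.23 CPM in control libraries. All 3 rose in the paired fit (adjusted p = 0.0211, 0.0147 and 0.033), and none passed without pairing (adjusted p = 0.534, 0.726 and 0.719). The gamma-glutamyl hydrolase gene ggh had 7.81, 3.84 and 5.65 CPM in eif5a1/2 libraries, against 2.36, 0.89 and 1.63 CPM in control libraries (paired log2 1.86 ± 0.23, adjusted p = 0.00231, and 0.162 without pairing). The AMP-activated kinase subunit gene prkag3a had 10.9, 4.17 and 6.47 CPM in eif5a1/2 libraries, against 2.22, 1.52 and 2.18 CPM in control libraries (1.79 ± 0.23, adjusted p = 0.00285, and 0.136 without pairing). Neither ggh nor prkag3a overlapped between groups, and both were highest in the replicate 1 libraries of either group. The GDP-fucose transporter gene slc35c1 had 1.24, 3.52 and 1.44 CPM in eif5a1/2 libraries, against 0.29, 1.101 and 0.23 CPM in control libraries, highest in replicate 2 of either group (paired log2 1.95 ± 0.36, adjusted p = 0.0187, and 0.361 without pairing).

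At the other end, genes of the immune response with low levels fell in the paired fit. The interferon-induced gene isg15 had 0.15, 0.19 and 0.38 CPM in eif5a1/2 libraries, against 0.43, 5.98 and 1.17 CPM in control libraries (paired adjusted p = 0.0182, and 0.297 without pairing). The chemokine gene ccl19b had 0.46, 0.42 and 0.56 CPM in eif5a1/2 libraries, against 1.36, 3.41 and 1.17 CPM in control libraries (paired adjusted p = 0.0344, and 0.184 without pairing). The antigen-loading gene tapbp.1 had 0.93, 0.89 and 1.32 CPM in eif5a1/2 libraries, against 1.72, 5.40 and 2.80 CPM in control libraries (paired adjusted p = 0.034, and 0.376 without pairing). In each, control 2 was the highest library, and each lost its call in 1 of the 3 fits that left out a pair. With the block in DESeq2, tapbp.1 did not pass (adjusted p = 0.0844) and isg15 did (0.022). In dhps embryos against the same controls the log2 values of isg15, ccl19b and tapbp.1 were -1.82, -1.94 and -1.51 (adjusted p = 0.258, 0.0777 and 0.19). Their contrasts between the knockdowns did not pass the test (adjusted p = 0.52, 0.944 and 0.924). Of 25 interferon and innate response genes tested, isg15 fell and the lysosomal reductase gene ifi30 rose (0.69 ± 0.15, paired adjusted p = 0.033). That is 4.0% in each direction, beside 1.09% of all genes that fell and 0.863% that rose. The list median was -0.32, and it was -0.44 in dhps embryos against the same controls.

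Of the machinery of translation, the changes were in single factors. Of 80 translation factor genes tested, eif5a and the elongation factor gene eef2l2 fell, and etf1b and the subunit-joining initiation factor gene eif5b rose in the paired fit. That is 2.5% in each direction, beside 1.09% of all genes that fell and 0.863% that rose, and eif5a is itself a target of the morpholino. The gene eef2l2 had 53.4, 42.0 and 44.9 CPM in eif5a1/2 libraries, against 69.9, 75.7 and 63.1 CPM in control libraries (paired log2 -0.58 ± 0.13, adjusted p = 0.0367, and 0.214 without pairing). The gene eif5b had 51.7, 82.97 and 58.7 CPM in eif5a1/2 libraries, against 39.1, 54.8 and 36.7 CPM in control libraries (0.56 ± 0.12, adjusted p = 0.0328, and 0.419 without pairing), so its groups overlapped and replicate 2 was highest in either. None of 41 aminoacyl-tRNA synthetase genes passed in either fit. Of 106 ribosome biogenesis genes 3 rose (2.83%, beside 0.863% of all genes) and 0 fell, with a list median of 0.02. They were mybbp1a, ddx54 and pwp2h, of which mybbp1a had 38.9, 95.1 and 52.0 CPM in eif5a1/2 libraries, against 26.2, 52.9 and 25.4 CPM in control libraries (0.82 ± 0.13, adjusted p = 0.0085). All 3 had groups that overlapped and were highest in the replicate 2 libraries of either group, and none passed without pairing (adjusted p = 0.535 to 0.701).

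Cytoplasmic ribosomal protein genes had negative values in 81 of 82 cases, with a median of -0.35, but their pair medians were -0.03, -0.48 and -0.67. In the paired fit 1 member fell (1.22%, beside 1.09% of all genes). This member, zgc:136826, is matched in the NCBI table to an rps27-like gene that the stress list also holds. Mitochondrial ribosomal protein genes (76 tested, median -0.19) and nuclear genes of oxidative phosphorylation (92 tested, median -0.21) had 0 calls in either fit. Their pair medians were 0.08, -0.30 and -0.43 for the mitochondrial ribosomal proteins, and 0.05, -0.37 and -0.35 for oxidative phosphorylation. Of 54 proteasome genes psmb1 fell (paired adjusted p = 0.0433), a share of 1.85% beside 1.09% of all genes. The pair medians of the proteasome list were 0.09, -0.31 and -0.36. In these 4 lists pair 1 showed next to no difference or one of the other sign, while pairs 2 and 3 differed, as the libraries did along the first principal component. The part of that axis in the list medians was not tested.

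**Figure D4:**
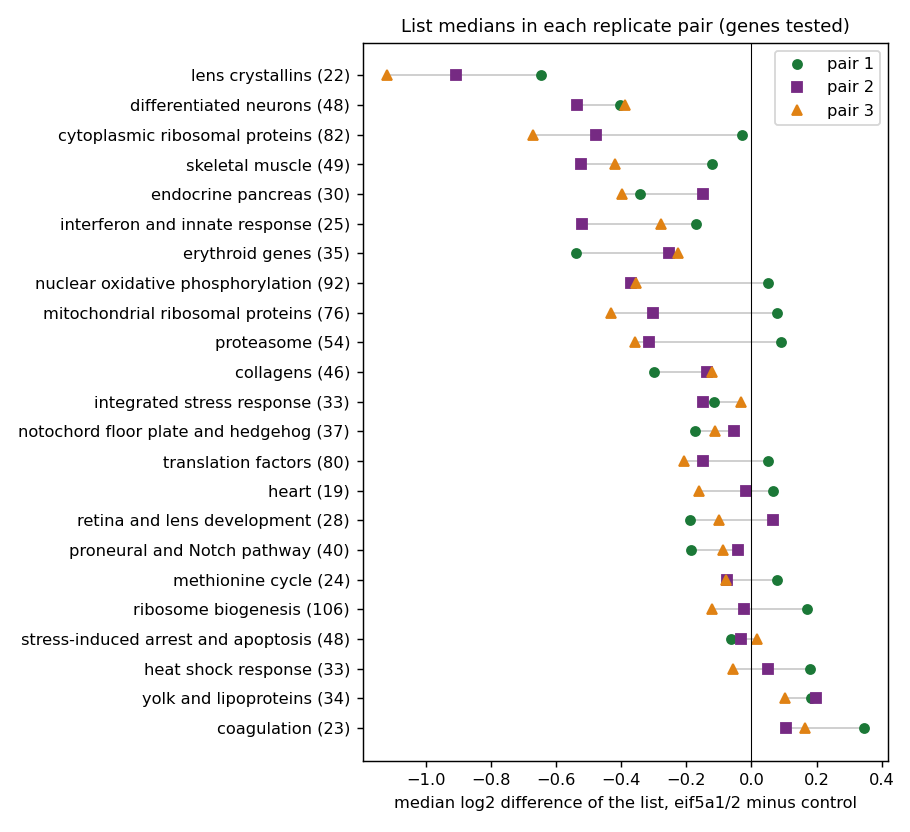
Median log2 difference of each gene list, eif5a1/2 minus control, in replicate pair 1 (circle), pair 2 (square) and pair 3 (triangle), with the number of genes tested in brackets and lists sorted by their median in the paired fit. Lens crystallins, with pair medians of -0.65, -0.91 and -1.12, lie farthest to the left. Cytoplasmic ribosomal proteins are at -0.03 in pair 1, against -0.48 and -0.67 in pairs 2 and 3, whereas differentiated neurons are at -0.40, -0.53 and -0.39.

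Some genes of cell-cycle arrest and apoptosis were below the controls in eif5a1/2 embryos and above them in dhps embryos. Of 48 genes tested in this list, 4 fell (8.33%) and 2 rose (4.17%) in the paired fit, with a median of 0.02. The shares over all genes in that fit were 1.09% and 0.863%. The caspase gene casp8, which starts apoptosis downstream of death receptors, had 7.27, 9.70 and 8.47 CPM in eif5a1/2 libraries, 42.9, 51.4 and 55.6 CPM in dhps libraries, and 17.1, 23.1 and 20.04 CPM in control libraries. It fell by 1.24 ± 0.16 in eif5a1/2 embryos (adjusted p = 0.0296) and rose by 1.31 in dhps embryos (adjusted p = 0.00501), both against the same controls. In dhps embryos 1.29% of all genes passed the test against control. The gene phlda3, whose human product restrains the kinase Akt, had 15.8, 10.8 and 14.4 CPM in eif5a1/2 libraries, 59.8, 58.1 and 65.7 CPM in dhps libraries, and 28.5, 27.6 and 29.4 CPM in control libraries. It fell by 1.06 ± 0.14 in eif5a1/2 embryos (adjusted p = 0.0296). The cyclin-dependent kinase inhibitor gene cdkn1a had 9.67, 8.30 and 9.98 CPM in eif5a1/2 libraries, 48.4, 43.8 and 53.0 CPM in dhps libraries, and 17.7, 18.9 and 12.97 CPM in control libraries. Its fall in eif5a1/2 embryos passed in the paired fit only (-0.83 ± 0.16, adjusted p = 0.0235, and 0.124 without pairing). For casp8, phlda3 and cdkn1a the order was the same, with eif5a1/2 libraries lowest, controls between and dhps libraries highest, and no 2 of the groups overlapped.

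The difference between the knockdowns was tested itself, with eif5a1/2 against dhps libraries, where 1.77% of all genes passed. Of the 48 genes of this list, 10 were lower and 2 higher in eif5a1/2 than in dhps embryos. Of all genes tested, 143 were lower (0.84%) and 159 higher (0.934%). The contrast was -2.55 for casp8, -2.17 for phlda3, -2.38 for cdkn1a and -1.91 for mdm2, with an adjusted p of 0.000144 for the first 3 and 0.000161 for mdm2. The ubiquitin ligase gene mdm2, chosen like cdkn1a after its values were seen, had 38.4, 49.3 and 38.5 CPM in eif5a1/2 libraries, 169, 143 and 162 CPM in dhps libraries, and 52.4, 58.5 and 55.7 CPM in control libraries. Its difference from control in eif5a1/2 embryos did not pass the test (adjusted p = 0.386 without pairing, 0.101 with it). The Wnt enhancer gene rspo1 differed in the same way, with 17.4, 15.3 and 23.3 CPM in dhps libraries and a contrast of -3.52 between the knockdowns (adjusted p = 0.000144). The members that rose in the paired fit, btg1 (adjusted p = 0.0126) and rrm2b (adjusted p = 0.014), had groups that overlapped.

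Of the other genes with large changes in eif5a1/2 embryos, gnmt and ppox did not pass the test in dhps against control embryos (adjusted p = 0.336 and 0.155). The dhps libraries held 3.28, 2.40 and 3.35 CPM of gnmt, and the contrast of eif5a1/2 with dhps was 2.71 (adjusted p = 0.000144). They held 12.2, 12.97 and 10.1 CPM of ppox, with a contrast of -2.27 (adjusted p = 2e-04). The gene itm2ba rose in both knockdowns, by less in dhps embryos (35.4, 43.4 and 40.4 CPM; log2 0.56 against control, adjusted p = 0.0495), and its contrast of 1.24 passed the test (adjusted p = 0.000584). For etf1b the dhps libraries held 187, 235 and 210.1 CPM, between the other groups, and the contrast was 0.80 (adjusted p = 0.035). The carrier gene slc25a4 fell in both knockdowns, with 7.49, 9.66 and 6.91 CPM in dhps libraries (log2 -1.18 against control, adjusted p = 0.0143), and its contrast of -0.16 did not pass the test (adjusted p = 0.739).

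**Figure D5:**
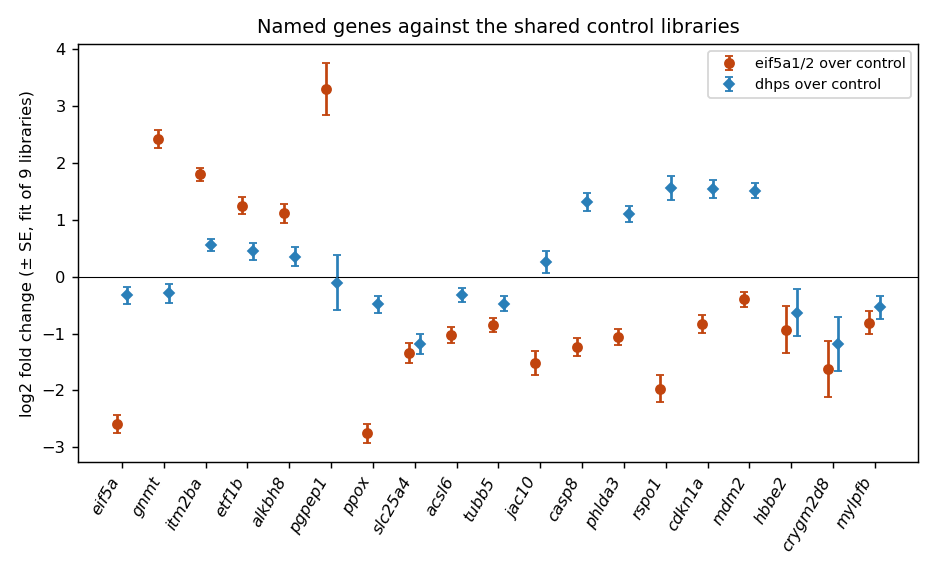
Log2 fold change with its SE in the fit to 9 libraries, for named genes in eif5a1/2 over control embryos (circles) and dhps over control embryos (diamonds). Both comparisons use the same 3 control libraries. The symbols lie on opposite sides of 0 for casp8, phlda3, rspo1, cdkn1a and mdm2. They also do for gnmt, pgpep1 and jac10, whose diamonds lie at -0.292, -0.105 and 0.256. Genes with only the circle far from 0 include eif5a, gnmt, pgpep1 and ppox.

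The integrated stress response, whose effectors include the transcription factor ATF4, gave calls in both directions. Of 33 genes tested, 2 rose (6.06%) and 2 fell (6.06%) in the paired fit, with a median of -0.12. The shares over all genes in that fit were 0.863% and 1.09%. The mitochondrial gluconeogenesis gene pck2 had 277, 214 and 218 CPM in eif5a1/2 libraries, against 143, 138 and 133 CPM in control libraries (paired log2 0.77 ± 0.13, adjusted p = 0.011, and 0.0779 without pairing). The gene atf4b had 143, 134 and 146 CPM in eif5a1/2 libraries, against 227, 207 and 229 CPM in control libraries (-0.65 ± 0.12, adjusted p = 0.0175, and 0.0708 without pairing). Neither gene overlapped between groups, and pairs differed little for atf4b. The paralog atf4a fell by 0.75 ± 0.17 (paired adjusted p = 0.0406), with groups that overlapped, and the serine hydroxymethyltransferase gene shmt2 was called higher (paired adjusted p = 0.0367) with levels that followed the replicate number.

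Of 33 heat shock genes 3 rose in the paired fit (9.09%, beside 0.863% of all genes) and 0 fell, with a median of 0.02. The chaperone gene hsp90aa1.2 had 65.7, 81.3 and 65.4 CPM in eif5a1/2 libraries, against 40.8, 37.8 and 48.2 CPM in control libraries (paired log2 0.75 ± 0.14, adjusted p = 0.018, and 0.135 without pairing), and its groups did not overlap. The co-chaperone gene dnaja1 (adjusted p = 0.0345) and the small heat shock gene hspb8 (adjusted p = 0.0349) were also called higher, with groups that overlapped and the highest levels in the replicate 2 libraries. Neither of these passed with the block in DESeq2 (adjusted p = 0.12 and 0.0848).

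Genes of yolk use and of coagulation had positive medians and few calls. Of 34 yolk and lipoprotein genes 2 rose in the paired fit (5.88%, beside 0.863% of all genes) and 0 fell. In all 3 pairs 17 were higher, against 19.6% of all genes tested, and the median was 0.18. The triglyceride transfer gene mtp had 5.26, 17.9 and 7.28 CPM in eif5a1/2 libraries, against 4.15, 7.71 and 3.11 CPM in control libraries (paired adjusted p = 0.0289), with groups that overlapped. The acyltransferase gene mogat2 had 22.9, 22.7 and 20.7 CPM in eif5a1/2 libraries, against 17.0, 13.9 and 13.4 CPM in control libraries (paired log2 0.59 ± 0.13, adjusted p = 0.0347, and 0.135 without pairing). With the block in DESeq2 neither mtp nor mogat2 passed (adjusted p = 0.0568 and 0.0929). Of the 3 fits that left out a pair, mtp was called in 2 and mogat2 in 1. Of 23 coagulation genes 1 rose in the paired fit (4.35%, beside 0.863% of all genes) and 0 fell, with a median of 0.20. It was the protease inhibitor gene a2ml, with 268, 204 and 199 CPM in eif5a1/2 libraries, against 144, 120 and 162 CPM in control libraries (0.65 ± 0.14, adjusted p = 0.0338, and 0.233 without pairing). For these lists the dhps medians against the same controls were -0.40 and -0.28. In eif5a1/2 against dhps embryos, 5 of the 34 yolk and lipoprotein genes and 3 of the 23 coagulation genes were higher. In both lists 0 were lower. Of all genes tested, 0.934% were higher and 0.84% lower in that contrast.

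Proliferation genes gave few calls. Of 60 DNA replication genes none passed in either fit, with a median of 0.05. Of 62 mitosis genes the kinesin gene kif20a rose (paired log2 0.55, adjusted p = 0.0287), with a median near 0. That is a share of 1.61%, beside 0.863% of all genes. In the epidermis and ionocyte list (39 tested), the pronephros list (28), the somite and tailbud list (29), the autophagy and lysosome list (37), the cholesterol synthesis list (26) and the exocrine pancreas list (6) none passed in either fit. Of the 44 lists, 29 had a negative median, 14 were negative in all 3 pairs and 7 positive in all 3.

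Some of the genes called in the paired fit are neighbours. In the gene order of the NCBI table of assembly GRCz12tu, 30 pairs of called genes lay within 3 steps of each other, and 25 of them moved the same way, a count given with no expectation for unrelated genes. Some belong to tandem families, and others are unrelated genes such as tubb5 and ino80e. The families included the globin genes hbbe1.1, hbbe1.2, hbae1.3, hbbe1.3 and hbae3, the parvalbumin genes pvalb4 and pvalb1, and the M2 crystallins. The pairs that moved in opposite ways included alkbh8 with ppox and smpd2a, which rose (paired log2 1.27), with phlda3, which fell.

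The authors' deposited table of this comparison lists 68 of 23709 genes (0.287%) at a q-value under 0.05, of which 36 are higher and 32 lower. These 68 include all 26 genes called here without pairing and 65 of the 332 called in the paired fit. For eif5a the authors' deposited table gives a log2 fold change of -2.58 with a q-value of 9.02e-59.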

How the data were processed

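Whole-embryo polyadenylated RNA was sequenced in 9 libraries. The authors deposited expected counts and TPM per gene and library in 1 table, per the file headers, and a second table of this comparison that gives, for each gene, the log2 ratio with its p-value and q-value, per the file headers. The assembly was GRCz11, per the submitters' processing notes. The sources used here do not give the aligner, the counter, the annotation, the use of strand or the authors' test. An expected count can split reads between similar genes, so values of paralogs are uncertain.

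Counts were rounded and tested with edgeR 4.0.16 (R 4.3.3; TMM scaling, filterByExpr, quasi-likelihood test with a robust spread, an adjusted p under 0.05). One fit used 9 libraries and 3 groups without the replicate number (6 residual degrees of freedom). The paired fit used the 6 libraries with the replicate number as a block (2 degrees of freedom, with the spread shared across genes). All adjusted p are from these fits unless another setting is named. The numbers come from the labels. The deviations of same-numbered eif5a1/2 and control libraries from their group means correlated by 0.403, 0.76 and 0.318, all above the limit of 0.1 set for calling them paired. However, eif5a1/2 1 correlated more with control 3 (0.597), and eif5a1/2 3 with control 1 (0.26) also passed the limit. The limit therefore does not single out the replicate numbers as the pairs. The labels name no molecular identifiers, so reads need not be independent molecules. CPM are counts over scaled library sizes, brought to a common total.

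The members and the 44 gene lists were chosen with earlier results of these data known, and some patterns of the lists were corrected after their members were seen. Subgroups of the lists, such as the globins, type IX collagen chains and beta and gamma crystallins, were formed after the lists were seen. List symbols were matched in the table or through an NCBI table of GRCz12tu, which was used for names and gene order; 22941 of 24614 gene IDs matched, and 37 list entries were not found. Genes named include the targets and, in each fit, up to 10 with the highest and 10 with the lowest fold change (mean CPM of at least 1, a given name). Up to 5 members of each list were taken by their p in the paired fit. Other genes named, among them pvalb4, mylz3 and ank1a, were chosen after their values were seen. The other settings were RLE scaling, library totals, other filters, each library or pair left out, length corrections, DESeq2 1.42.0 and limma-voom (limma 3.58.1). A planned description of proline runs in the proteins was not done, and some genes are not reported here. The fits were also run on simulated data. For the paired fit these data had an effect of each replicate number built in. That run therefore cannot show whether the replicate numbers are pairs.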

Additional observations from a re-analysis of the deposited data

How the results depend on the processing

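The number of genes called varied widely between settings. Without the replicate block 26 of 17031 genes were called in the fit to 9 libraries and 5 in the 6 libraries alone. With it, 332 were called in the 6 libraries, 332 without the robust spread, 347 with the length trend removed, 218 with DESeq2 and 497 with limma-voom, but 14 in all 9 libraries. Leaving out pair 1, 2 or 3 gave 1866, 305 or 320 calls, and leaving out a library without the block gave 5 to 20. Without the block, library totals alone gave 14 calls (10 higher, 4 lower), the length slope as a covariate 776, DESeq2 206, and an adjusted p under 0.1 or 0.01 gave 43 or 5. RLE scaling, other filters, limma-voom and the length trend removed without the block gave 20 to 29. Under library totals, where the median of all genes was 0.176, 13 of 44 list medians were negative, against 29; those of neurons, crystallins, muscle and erythroid genes were still negative. The log2 value of eif5a lay between -2.685 and -2.411 in the settings tried. Of the 332 paired calls, 271 also passed with the length trend removed and 186 with DESeq2. The sign of dohh turned under library totals (0.089), in the block without pair 3 (0.044) and with the length slope (0.026), and ranged from -0.306 to 0.148 with 1 library left out. The sign of dhps turned in the block without pair 1 (-0.035) and with the length trend removed (-0.008, and -0.005 in the block), and ranged from -0.026 to 0.102 with 1 library left out. In the fit to 9 libraries the lowest values, all without eif5a1/2 2, and the highest, all without control 2, were -0.471 and 4.115 for mpdz, -0.941 and 3.674 for mknk2b, -0.677 and 2.638 for notch3, -0.185 and 1.783 for shmt2, and -0.317 and 2.089 for hspb8. Causes were not tested. Genes below the filter on low counts were too shallow to compare.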
